A study of Irpex lacteus with 9 samples.

Results

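*Irpex lacteus*, a white-rot fungus that breaks down lignin in straw, was grown on wheat straw with NH4Cl, NaNO3 or distilled water added, and RNA was sequenced from 3 libraries per group. The account given here sets the 3 NH4Cl libraries against the 3 NaNO3 libraries, 6 of the 9 libraries of the series, across all genes with enough counts, and repeats the comparison without NH4Cl replicate 3 and NaNO3 replicate 1. The labels give the added agent and nothing on its concentration, the time of harvest or the strain, and both salts also differ in their counter-ions. The labels do not say whether replicates were separate cultures, so a p-value measures the spread between these samples, which may be technical. Positive log2 fold changes mean higher with NH4Cl, negative ones lower with NH4Cl.

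Fungi take up ammonium through transporters of the Mep/Amt family and join it to glutamate and glutamine through glutamine synthetase, glutamate synthase and glutamate dehydrogenases. Nitrate enters through its own transporter and is reduced to nitrite by nitrate reductase and on to ammonium by nitrite reductase. In ascomycetes such as *Aspergillus nidulans*, ammonium represses the genes for nitrate and other nitrogen sources. In some white-rot fungi the nitrogen supply also changes the output of ligninolytic enzymes.

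Depth was 17896230 to 20669551 counts per NH4Cl or NaNO3 library and 18489704 to 23194078 per water library, and no pair of libraries held identical values. NH4Cl replicate 3 and NaNO3 replicate 1 stood apart from the other replicates of their groups. Cellulase genes took 0.765% and 0.132% of their counts, against 0.0129% to 0.0749% in the other 7 libraries. Class II peroxidase genes took 2.54% and 0.888%, against 4.54% to 6.88%. An earlier look at these data had singled out both libraries by these shares, so the shares are not independent evidence that they differ. Leaving out libraries chosen this way can lower the spread, and the p-values of the fit without them take no account of the choice. On the leading principal component, which held 33.7% of the variance, NaNO3 replicate 1 lay at 94.5 and NH4Cl replicate 3 at 34.7, with the others between -42.8 and 20.9. The share that these libraries have in a result was read from a second fit of 7 libraries without them, in which each nitrogen salt keeps 2 libraries and the 3 water libraries add to the estimate of the spread. The table holds fungal gene models, and 0 of its genes matched a list of wheat photosynthesis genes. In RNA from a whole culture, fewer hyphae that use a gene and less of its RNA per hypha cannot be told apart.

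With all 9 libraries in the fit, 162 of 14808 genes tested differed between NH4Cl and NaNO3, which is 1.09% (edgeR quasi-likelihood test, Benjamini-Hochberg adjusted p under 0.05, termed called from here on). Of these, 88 genes (0.594%) were higher and 74 (0.5%) lower with NH4Cl, and 135 differed at least 2-fold. Without the libraries that stood apart, 810 of 14913 genes were called, which is 5.43%, with 285 higher (1.91%) and 525 lower (3.52%). The common biological coefficient of variation was 0.317 with 9 libraries and 0.216 with 7. Both fits called 140 genes, all in the same direction, 86.4% of the 9-library calls and 17.3% of the 7-library calls. The split moved with the libraries, since higher genes made up 54.3% of the calls with 9 libraries and 35.2% with 7. At an unadjusted p below 0.05 the shares were 21.1% with 9 libraries and 24.0% with 7. With 9 libraries DESeq2 called 4.73% of genes higher and 4.7% lower, limma on log2(FPKM + 1) 0.521% and 0.335%, and voom with library weights 3.23% and 3.95%. With 7 libraries these were 4.28% and 5.77%, 2.2% and 3.5%, and 1.98% and 3.61%. The groups of 0 called genes overlapped in the fit that called them. Non-overlap alone is common here, at 25.2% of tested genes with 3 against 3 libraries and 56.5% with 2 against 2.

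The number of calls rested on single libraries. With 9 libraries in the fit, leaving out water replicate 1, 2 or 3 gave 44, 16 or 85 calls. Leaving out NH4Cl replicate 1, 2 or 3 gave 30, 0 or 535, and leaving out NaNO3 replicate 1, 2 or 3 gave 92, 20 or 13. Without NH4Cl replicate 2, 2332 genes still had an unadjusted p below 0.05, against 3125 with every library. With 7 libraries, further leaving out water replicate 1, 2 or 3 gave 764, 403 or 1017 calls. Leaving out NH4Cl replicate 1 or 2 gave 15 or 452, and leaving out NaNO3 replicate 2 or 3 gave 100 or 206. Every 9-library call named below is therefore lost without NH4Cl replicate 2, and the lowest adjusted p with all 9 libraries was 0.0133. Most 7-library calls, including most of those named below, are likewise lost without NH4Cl replicate 1, which leaves a single NH4Cl library.

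**Figure D1:**
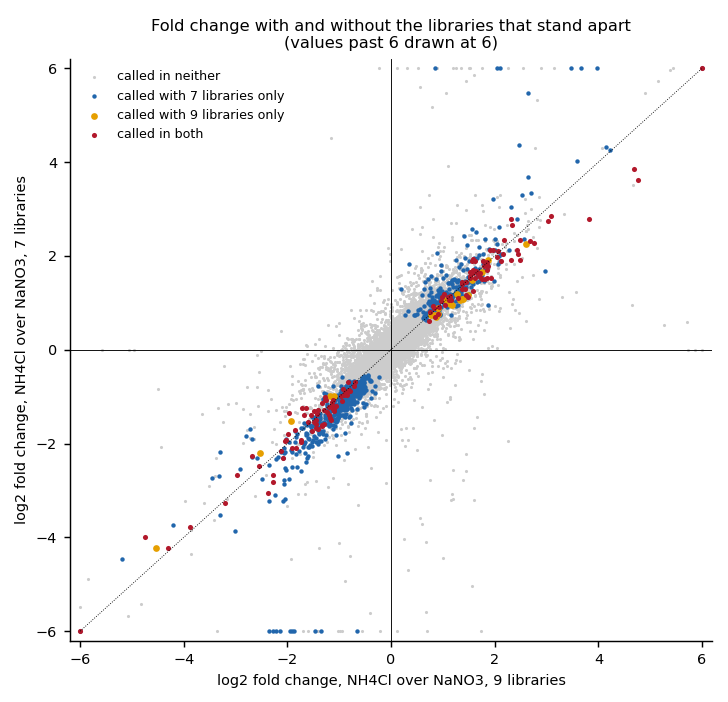
Each point is a gene tested in both fits, with its log2 fold change of NH4Cl over NaNO3 from 9 libraries on the horizontal axis and from 7 libraries on the vertical axis. The 140 genes called in both fits lie at the lower left and the upper right, and most genes drawn at the limit of 6 on the vertical axis have no counts in the remaining libraries of one group.

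The 2 libraries left out were compared with the 7-library calls they had no part in. Of the 285 genes higher with NH4Cl, NaNO3 replicate 1 fell on the NaNO3 side of the midpoint between the remaining groups for 235, and NH4Cl replicate 3 fell on the NH4Cl side for 183. Of the 525 genes lower with NH4Cl, the same held for NaNO3 replicate 1 in 418 and for NH4Cl replicate 3 in 232. Both libraries were on their own group's side for 141 of the higher and 128 of the lower genes. NH4Cl replicate 3 thus lay on the NaNO3 side for most of the lower genes. A library unlike either group would also fall on its own side for many genes. The same count over all tested genes was not made, so these counts do not measure how well the calls hold.

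The water mean lay between the salts for most called genes. Of the 88 genes higher with NH4Cl in the 9-library fit, the water mean lay between the group means for 70, above both for 5 and below both for 13. Of the 74 lower genes it lay between them for 70. Within those 2 sets of 70, water was nearer NaNO3 for 39 and 41 genes and nearer NH4Cl for 31 and 29. With 7 libraries, water lay between the salts for 185 of the 285 higher genes, above both for 59 and below both for 41. For the 525 lower genes these were 469, 40 and 16. Genes called for a gap between the salts will hold the water mean inside that gap more often than other genes. The same count over all tested genes was not made.

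With every gene model counted, the ammonium transporter genes showed the largest median difference among the gene lists. That median covers only 4 genes, and the 2 with the largest differences may share the reads of a single transcript, as described below. With that pair counted as 1 gene, the list would not rank first. Its middle gene would be BC629DRAFT_1595697, at log2 fold changes of -0.64 to -0.28 across alternatives to the 9-library fit. Across those to the 7-library fit it lay at -0.65 to -0.59. The multicopper oxidase list had medians of 1.34 and 1.18. Of the 4 ammonium transporter genes, 2 were called lower with NH4Cl and 0 higher. Their median log2 fold change was -2.35 with 9 libraries and -2.44 with 7, against 0.02 over all genes in each fit. Together the 4 genes took 0.00726% to 0.00829% of the counts with NH4Cl and 0.0479% to 0.0808% with NaNO3. The most abundant is an ammonium transporter 1 gene (NewGene_3477), whose product carries ammonium across the plasma membrane. It had 19.8, 22.3 and 24.2 CPM (the gene's counts relative to its library's total, scaled with edgeR's TMM factors) in the NH4Cl libraries and 519, 392 and 397 CPM in the NaNO3 libraries. All NH4Cl libraries lay close together and far below every NaNO3 library. The gene was 19.7-fold lower with NH4Cl (log2 -4.3 ± 0.74 SE, edgeR adjusted p = 0.0416) and 18.7-fold lower without the libraries that stood apart (adjusted p = 0.0495). The 3 water libraries were split, at 253, 341 and 30.8 CPM.

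A further ammonium transporter 1 gene (BC629DRAFT_1596464) had 3.41, 2.85 and 3.91 CPM with NH4Cl and 119, 63.9 and 54.2 CPM with NaNO3 (log2 -4.54 ± 0.81, edgeR adjusted p = 0.0452; 7 libraries, -4.24 and 0.054, not called). Both genes have the same best protein match and the ratio of their levels stayed between 0.12 and 0.228 across the 9 libraries, so the authors' counting may have split reads of a single transcript between them. The low affinity ammonium transporter gene BC629DRAFT_1595697 was called with 7 libraries alone (log2 -0.64 ± 0.12, adjusted p = 0.032). NH4Cl replicates 1 to 3 had 37.7, 37.1 and 41.1 CPM of it, and NaNO3 replicates 1 to 3 had 36.5, 57.7 and 59 CPM. The MEP3-type gene BC629DRAFT_1491064 was not called in either fit, with log2 fold changes of 0.21 ± 0.33 and 0.28 ± 0.24.

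Of 8 nitrate and nitrite uptake and reduction genes tested, 2 were called lower with NH4Cl in each fit and 0 higher, while the list's median log2 fold change was -0.23 and -0.27. The nitrate transporter gene BC629DRAFT_1580917 had 0.398, 0.569 and 0.254 CPM with NH4Cl and 4.87, 5.01 and 8.32 CPM with NaNO3. It was scarce in every library, and its groups did not overlap. The fold change was 14.8 (log2 -3.89 ± 0.54, edgeR adjusted p = 0.0242), and 13.6 without the libraries that stood apart (adjusted p = 0.0232). The nitrate reductase gene BC629DRAFT_1283050 had 19.7, 18.9 and 6.96 CPM with NH4Cl and 47.3, 68.7 and 64.9 CPM with NaNO3, with water between them at 38.8, 33 and 30 CPM. It was 3.98-fold lower with NH4Cl (log2 -1.99 ± 0.36, adjusted p = 0.0462) and 3.47-fold lower with 7 libraries (adjusted p = 0.00554).

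The other genes annotated to nitrate reductase or nitrite reductase did not pass the test in either fit. The nitrate reductase gene BC629DRAFT_1591999, with the higher mean level per length (46.8 FPKM with NH4Cl and 53.8 FPKM with NaNO3, fragments scaled to transcript length and depth), had log2 fold changes of -0.18 ± 0.42 and -0.09 ± 0.3. The nitrite reductase gene BC629DRAFT_1591045 had 29, 33.6 and 35.4 CPM with NH4Cl and 32.1, 40 and 45.8 CPM with NaNO3. Its groups overlapped with all libraries (log2 -0.27 ± 0.16) and did not overlap without the libraries that stood apart (-0.46 ± 0.14). Of the genes that make the molybdenum cofactor and siroheme, which nitrate and nitrite reductases need, 0 of 7 were called in either fit. At an unadjusted p below 0.05, 1 of those 7 was lower with 9 libraries and 2 with 7, DESeq2 called 0 and 1, limma on FPKM 0 and 0, and voom 1 and 0.

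**Figure D2:**
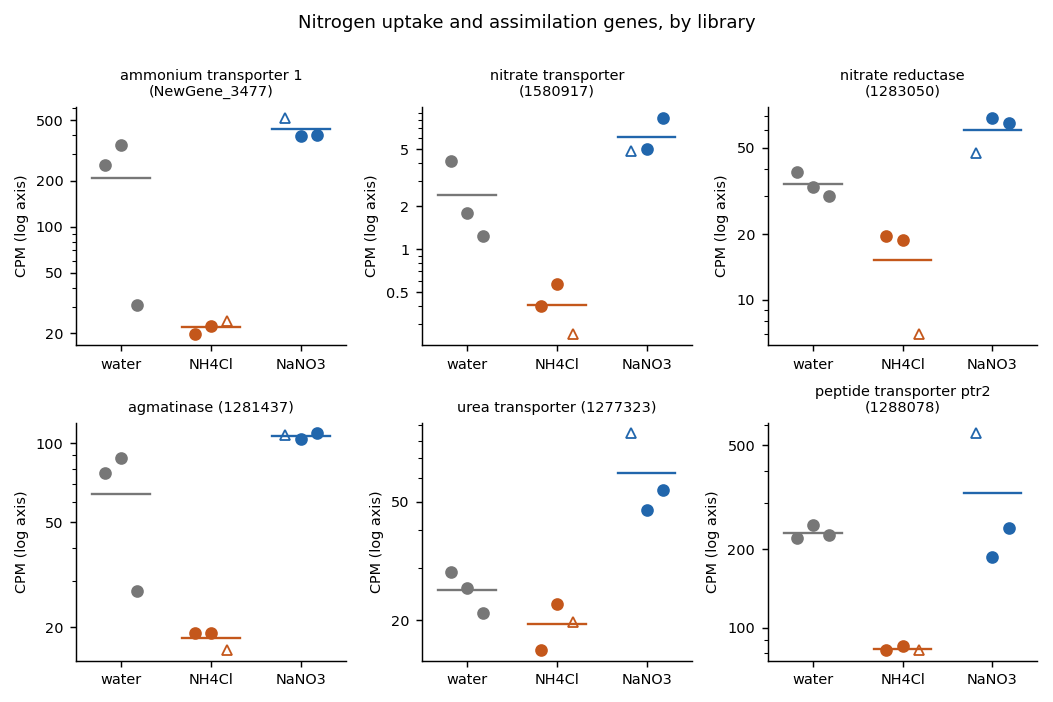
CPM on a log axis for 6 nitrogen genes in each library of the 3 groups, with filled circles for libraries in both fits, open triangles for NH4Cl replicate 3 and NaNO3 replicate 1, and a line at each group's mean of 3. In all 6 panels every NH4Cl library lies below every NaNO3 library, as for NewGene_3477 at 19.8 to 24.2 against 392 to 519 CPM.

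In the list that joins ammonium to carbon skeletons, 0 of 7 genes were called with 9 libraries and 1 with 7, and the median log2 fold change was -0.87 and -0.83. At an unadjusted p below 0.05, 4 of the 7 were lower with 9 libraries, against 10.2% of all genes, and DESeq2, limma and voom called 4, 0 and 3 lower. The called gene codes for an NAD-specific glutamate dehydrogenase (BC629DRAFT_1592883), an enzyme that mostly releases ammonium from glutamate. It had 40.2, 32.6 and 57.7 CPM with NH4Cl and 107, 84.3 and 69.3 CPM with NaNO3 (9 libraries, log2 -1 ± 0.26, adjusted p = 0.0874; 7 libraries, -1.08 ± 0.21, edgeR adjusted p = 0.0315). The glutamine synthetase gene BC629DRAFT_780516 had 314, 366 and 290 CPM with NH4Cl and 567, 646 and 562 CPM with NaNO3. The groups were apart but the adjusted p was 0.0883 with 9 libraries and 0.102 with 7. NewGene_1883, also annotated to glutamine synthetase, tracked it at a ratio of 1.1 to 1.24 and may share its reads. The glutamate synthase gene BC629DRAFT_1587885 had log2 fold changes of 0.02 ± 0.23 and -0.07 ± 0.27. The NADP-specific glutamate dehydrogenase gene BC629DRAFT_747089 had -0.24 ± 0.25 and 0.01 ± 0.27.

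Genes for taking nitrogen out of urea, purines, agmatine and amides gave 4 called lower and 0 higher of 38 with 9 libraries, and 9 lower and 1 higher with 7. Their median log2 fold change was -0.39 and -0.41. An agmatinase gene (BC629DRAFT_1281437), whose product splits agmatine into putrescine and urea, had 19, 19 and 16.4 CPM with NH4Cl and 107, 104 and 109 CPM with NaNO3. The spread within each group was small next to the distance between them, and the gene was 5.89-fold lower (log2 -2.56 ± 0.38, edgeR adjusted p = 0.0285; 7 libraries, adjusted p = 0.032). The urea transporter gene BC629DRAFT_1277323 had 15.9, 22.7 and 19.8 CPM with NH4Cl and 84.6, 46.9 and 54.8 CPM with NaNO3 (log2 -1.67 ± 0.25, adjusted p = 0.0285). A urease accessory protein gene (BC629DRAFT_1714520) had 1.53, 2.51 and 1.83 against 15.5, 20.2 and 18.7 CPM (log2 -3.21 ± 0.49, adjusted p = 0.0329). A permease gene of the list (BC629DRAFT_1282880) had a log2 fold change of -2.12 ± 0.34 (adjusted p = 0.0377). All 4 were also called with 7 libraries, and the agmatinase held its call under 10 of 17 alternatives to the 9-library fit.

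Of the genes called with 7 libraries alone, the acetamidase gene BC629DRAFT_1736308 had 135, 190 and 140 CPM with NH4Cl and 127, 333 and 411 CPM with NaNO3, so that NaNO3 replicate 1 lay below every NH4Cl library (7 libraries, log2 -1.2 ± 0.25, edgeR adjusted p = 0.038). The amidase gene BC629DRAFT_1286171 had 17.2, 17.4 and 7.93 against 10.3, 99.1 and 71.5 CPM, with NaNO3 replicate 1 inside the range of the NH4Cl libraries (log2 -2.3 ± 0.43, adjusted p = 0.0286). The amidase gene called higher, BC629DRAFT_1434853, had 51.7, 45.4 and 41.3 against 34.9, 30.3 and 25.6 CPM, with no overlap (log2 0.8 ± 0.18, adjusted p = 0.0491).

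Of 68 amino acid and peptide transporter genes, 2 were called lower and 0 higher with 9 libraries, and 11 lower and 0 higher with 7. The median log2 fold change was -0.4 and -0.32. The peptide transporter gene ptr2 (BC629DRAFT_1288078), for uptake of short peptides, had 82.6, 84.9 and 82.3 CPM with NH4Cl and 556, 187 and 241 CPM with NaNO3. NaNO3 replicate 1 was the highest, and water lay at 220 to 247 CPM beside the other NaNO3 libraries. The log2 fold change was -1.98 ± 0.37 (edgeR adjusted p = 0.048) and -1.35 ± 0.16 without the libraries that stood apart (adjusted p = 0.00744). A glutathione transporter gene (BC629DRAFT_1276152) had 7.22, 6.89 and 5.69 against 31.8, 15.4 and 17.8 CPM (log2 -1.72 ± 0.27, adjusted p = 0.0348). The most abundant called members per length were 2 further genes annotated to glutathione transporter 1. NewGene_1225 had 679, 512 and 369 CPM with NH4Cl and 344, 1454 and 1435 CPM with NaNO3 (7 libraries, log2 -1.28 ± 0.2, adjusted p = 0.0174). BC629DRAFT_1592347 had 649, 751 and 325 against 394, 1834 and 1229 CPM (log2 -1.13 ± 0.25, adjusted p = 0.0482). NaNO3 replicate 1 was as low as the NH4Cl libraries for both, and neither was called with 9 libraries.

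Among 221 peptidase genes, 3 were called lower and 0 higher with 9 libraries, and among 222 with 7 libraries 15 lower and 2 higher. Across all genes, 1.09% were called with 9 libraries and 5.43% with 7. The median log2 fold change of the peptidase genes was 0.03 and -0.01, near that of all genes. The secreted peptidyl-Lys metalloendopeptidase gene BC629DRAFT_1543585 had 1.48, 1.54 and 1.93 CPM with NH4Cl and 86, 24.6 and 23.3 CPM with NaNO3. It was 26.9-fold lower with NH4Cl (log2 -4.75 ± 0.84, edgeR adjusted p = 0.0448), and 15.8-fold lower without NaNO3 replicate 1, its highest library, and NH4Cl replicate 3 (adjusted p = 0.0407). NewGene_402, with the same product name and best protein match, was at a ratio of 0.388 to 0.897 to it and may share its reads. An IgA peptidase M64 gene (BC629DRAFT_1292470, log2 -1.2 ± 0.21, adjusted p = 0.0416) and an endoplasmic reticulum metallopeptidase gene (BC629DRAFT_1276043, -1.29 ± 0.13, adjusted p = 0.0133) were also called lower. The polyporopepsin gene BC629DRAFT_1289640, for a secreted aspartic protease, had 18.2, 18.4 and 40.1 CPM with NH4Cl and 589, 76.3 and 89.3 CPM with NaNO3. It was called with 7 libraries (log2 -2.18 ± 0.38, adjusted p = 0.0238) and not with 9 (adjusted p = 0.0869).

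In amino acid biosynthesis, 2 of 149 genes were called lower and 0 higher with 9 libraries, and 9 lower and 1 higher with 7. Across all genes, 1.09% were called with 9 libraries and 5.43% with 7, with 0.5% and 3.52% called lower. The median log2 fold change of the list was -0.23 in both fits. The list took 2.39% to 2.61% of counts with NH4Cl and 2.75% to 3.36% with NaNO3. The aspartokinase gene BC629DRAFT_1276755, for the entry step to threonine, methionine and isoleucine, had 463, 346 and 235 CPM with NH4Cl and 246, 1232 and 1170 CPM with NaNO3. NaNO3 replicate 1 sat among the NH4Cl libraries, and the gene was called with 7 libraries alone (log2 -1.57 ± 0.27, edgeR adjusted p = 0.0238). Homoserine O-acetyltransferase (BC629DRAFT_1580486, -1.03 ± 0.18, adjusted p = 0.0245) and cystathionine gamma-synthase (BC629DRAFT_1522246, -1.11 ± 0.2, adjusted p = 0.0242), enzymes of sulfur amino acid synthesis, were lower in the same fit. Glutamate 5-kinase, the entry step to proline, had 50.6, 42.6 and 44.3 against 65.2, 87.5 and 72.9 CPM (BC629DRAFT_1579206, -0.78 ± 0.15, adjusted p = 0.0318).

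The lists of ligninolytic peroxidases and GMC oxidoreductases held at most 1 call per fit. Over all genes 1.09% were called with 9 libraries and 5.43% with 7, so lists this short can hold 0 or 1 call at those shares. Class II peroxidases, the heme enzymes that oxidise lignin, gave 0 of 15 called with 9 libraries and 1 lower with 7, with median log2 fold changes of 0.08 and -0.17. With 9 libraries 0 of the 15 had an unadjusted p below 0.05, and DESeq2, limma and voom called 0. Dye-decolorizing peroxidases gave 0 of 5 called with 9 libraries, and 1 higher with 7. With 9 libraries 1 was higher at an unadjusted p below 0.05, and DESeq2, limma and voom called 1, 0 and 0. The gene called with 7 libraries, BC629DRAFT_1489472, had 43.4, 51.8 and 29.9 CPM with NH4Cl and 70.2, 17.2 and 21.6 CPM with NaNO3 (7 libraries, log2 1.3 ± 0.18, edgeR adjusted p = 0.0119). NaNO3 replicate 1 was its highest library, so the 9-library value was 0.2 ± 0.48. GMC oxidoreductases, which make hydrogen peroxide from sugars or alcohols, gave 0 of 27 called in either fit. At an unadjusted p below 0.05, 3 were higher and 6 lower with 9 libraries, and 1 higher and 4 lower with 7. DESeq2 called 3 with 9 libraries and 2 with 7, limma 0 and 0, and voom 1 and 0.

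Among GLOX, copper radical oxidase and multicopper oxidase genes, the called ones were all higher with NH4Cl in both fits. GLOX and copper radical oxidases release hydrogen peroxide from aldehydes. Of their genes, 1 of 12 was called higher with 9 libraries and 3 of 13 with 7, and 0 lower. Their median log2 fold change was 0.12 and 0.05, against 0.02 over all genes. At an unadjusted p below 0.05, 4 were higher and 0 lower with 9 libraries, and 4 higher and 2 lower with 7. DESeq2 called 3 higher and 0 lower with 9 libraries, and 4 higher and 2 lower with 7. The GLOX gene BC629DRAFT_1598350 had 208, 265 and 890 CPM with NH4Cl and 28.6, 32.9 and 35.6 CPM with NaNO3. NH4Cl replicate 3 was by far the highest, and the NaNO3 libraries lay together within the range of the water libraries. The gene was 14-fold higher with NH4Cl (log2 3.81 ± 0.63, edgeR adjusted p = 0.0416) and 6.9-fold higher without the libraries that stood apart (2.79 ± 0.46, adjusted p = 0.0202). A gene annotated to a WSC domain protein (BC629DRAFT_581110), in the list by its domain, had 1139, 1739 and 3494 against 566, 420 and 626 CPM (7 libraries, 1.46 ± 0.33, adjusted p = 0.0499). Of 3 multicopper oxidase genes, 1 was higher with 9 libraries and 2 with 7, and both are annotated to the iron multicopper oxidase fer1 of iron uptake rather than to laccases. NewGene_1730 had 5.97, 7.46 and 5.89 against 2.05, 2.59 and 2.89 CPM (log2 1.36 ± 0.21, adjusted p = 0.0332).

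Oxalate is secreted by white-rot fungi and degraded by oxalate decarboxylase. Of 7 oxalate decarboxylase genes 0 were called with 9 libraries and 1 with 7. In the 9-library fit 2 were higher and 1 lower at an unadjusted p below 0.05, and DESeq2, limma and voom called 2, 0 and 1 higher. BC629DRAFT_1590463 had 534, 570 and 55.7 CPM with NH4Cl and 4.32, 35.1 and 22.9 CPM with NaNO3. NH4Cl replicate 3 lay near the water libraries (22.9, 31.4 and 49.2 CPM), and NaNO3 replicate 1 was the lowest of all. The gene was 19-fold higher with 7 libraries (log2 4.25 ± 0.4, edgeR adjusted p = 0.00596) and had a like fold change of 18.6 with 9 (4.22 ± 0.99, adjusted p = 0.075). The versatile peroxidase gene VPS1 (BC629DRAFT_1589173), the class II member called lower with 7 libraries, had 269, 396 and 42.5 against 10.3, 2425 and 1207 CPM (-2.45 ± 0.39, adjusted p = 0.0189). Its lowest library was NaNO3 replicate 1, and the 9-library adjusted p was 0.351.

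**Figure D3:**
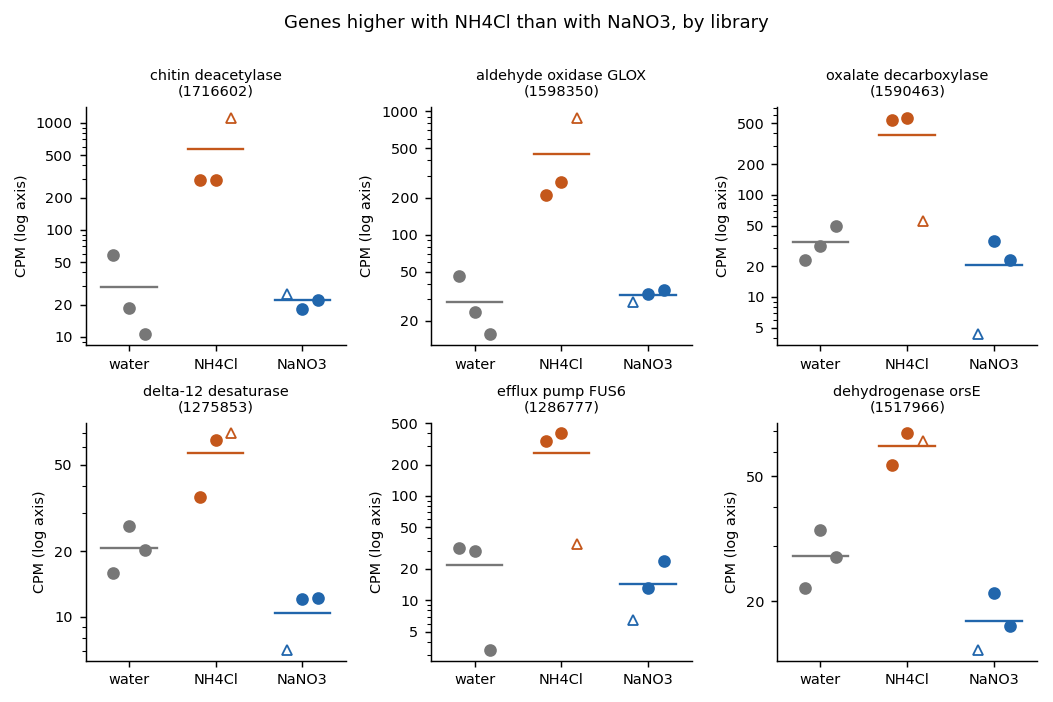
CPM on a log axis for 6 genes with higher levels with NH4Cl than with NaNO3, by library, with filled circles for libraries in both fits, open triangles for NH4Cl replicate 3 and NaNO3 replicate 1, and a line at each group's mean of 3. NH4Cl replicate 3 is the highest library for the chitin deacetylase and GLOX genes (1119 and 890 CPM) and the lowest NH4Cl library for oxalate decarboxylase and FUS6 (55.7 and 34.8 CPM).

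No cellulase, lytic polysaccharide monooxygenase (LPMO) or cellobiose dehydrogenase gene was called in either fit, and the medians of these lists changed sign with the libraries in the fit. For 15 cellulases the median log2 fold change was 1.17 with 9 libraries and -0.83 with 7. For 23 LPMO and cellobiose dehydrogenase genes it was 0.34 and -1.92. At an unadjusted p below 0.05, 3 cellulases were higher and 0 lower with 9 libraries, and 1 higher and 3 lower with 7. The LPMO list gave 1 higher and 0 lower with 9 libraries, and 1 higher and 12 lower with 7. DESeq2 called 1 cellulase higher and no LPMO gene with 9 libraries, and 1 cellulase and 5 LPMO genes lower with 7, while limma and voom called 0 in these lists. NH4Cl replicate 3 alone gave 0.793% of its counts to the LPMO list, against 0.0652% and 0.0656% in the other NH4Cl libraries.

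Of 45 hemicellulase and pectinase genes, 0 were called with 9 libraries and 1 was higher with 7, and the median log2 fold change was 0.75 and 0.13. In the 9-library fit 10 were higher and 0 lower at an unadjusted p below 0.05, and DESeq2, limma and voom called 7, 0 and 2 higher. NH4Cl replicate 3 gave 0.709% of its counts to the list, against 0.158% and 0.167% in the other NH4Cl libraries. The endopolygalacturonase gene BC629DRAFT_1596453, for a pectin-cutting enzyme, had 43.6, 45.2 and 29.1 CPM with NH4Cl and 14.2, 24.6 and 17.9 CPM with NaNO3 (7 libraries, log2 1.06 ± 0.2, edgeR adjusted p = 0.0291). Of 11 beta-glucosidase genes, 2 were higher and 1 lower with 7 libraries and 0 were called with 9, where 2 were higher and 1 lower at an unadjusted p below 0.05. DESeq2, limma and voom called 2, 0 and 2 of them higher with 9 libraries. The gene annotated to an alpha/beta-glucosidase, BC629DRAFT_1580060, had 323, 290 and 351 against 210, 124 and 147 CPM (7 libraries, 1.18 ± 0.2, adjusted p = 0.0211; 9 libraries, adjusted p = 0.0727). The beta-glucosidase I gene BC629DRAFT_1597167 had 69.1, 113 and 331 against 586, 223 and 198 CPM and was lower with 7 libraries (-1.21 ± 0.26, adjusted p = 0.0419).

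Cytochrome P450 genes, whose products oxidise lignin-derived and other aromatic compounds, gave 3 lower and 0 higher of 177 with 9 libraries and 10 lower and 0 higher of 178 with 7. The median log2 fold change was 0.04 in both fits. Over all genes, 1.09% were called with 9 libraries and 5.43% with 7, and the P450 counts lie near those shares. In the 7-library fit 1.91% of all genes were called higher and 3.52% lower. BC629DRAFT_1056243 had 48.7, 48.2 and 46.5 CPM with NH4Cl and 143, 123 and 114 CPM with NaNO3, while water lay at 44 to 55.5 CPM with the NH4Cl libraries. Its log2 fold change was -1.4 ± 0.15 (edgeR adjusted p = 0.0133), and it was called under 14 of 17 alternatives. BC629DRAFT_842426, the most abundant called member per length, had 271, 290 and 103 against 115, 687 and 730 CPM and was called with 7 libraries alone (-1.34 ± 0.3, adjusted p = 0.0473). Glutathione S-transferases, which conjugate reactive compounds to glutathione, gave 1 lower of 40 with 9 libraries and 6 lower of 39 with 7, with 0 higher. Their median was -0.43 and -0.46. BC629DRAFT_744678 had 6.99, 8.26 and 9.3 against 31.9, 21 and 19.2 CPM (-1.55 ± 0.21, adjusted p = 0.023). BC629DRAFT_1460765 had 107, 144 and 137 against 189, 382 and 293 CPM (7 libraries, -1.43 ± 0.23, adjusted p = 0.0197).

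The central carbon metabolism genes called with 7 libraries were all lower with NH4Cl. Over all genes, 1.91% were called higher and 3.52% lower in that fit, and 1.09% were called with 9 libraries. Of 64 glycolysis and gluconeogenesis genes, 0 were called with 9 libraries and 4 were lower with 7, with median log2 fold changes of -0.2 and -0.1. In the 9-library fit 2 were higher and 13 lower at an unadjusted p below 0.05, and DESeq2, limma and voom called 6, 0 and 4 lower. Glucokinase, which phosphorylates glucose on entry, was among the 4. NewGene_3542 had 38.8, 47.7 and 106 CPM with NH4Cl and 368, 161 and 153 CPM with NaNO3 (7 libraries, log2 -1.86 ± 0.2, edgeR adjusted p = 0.00636; 9 libraries, -1.82 ± 0.46, adjusted p = 0.0871). NH4Cl replicate 3 and NaNO3 replicate 1 were each the highest of their group, and the groups did not overlap. BC629DRAFT_1290695, also named glucokinase, tracked it at a ratio of 0.187 to 0.268. The glucose-6-phosphate 1-epimerase gene BC629DRAFT_1468194 had 249, 282 and 438 against 570, 542 and 502 CPM (-0.98 ± 0.15, adjusted p = 0.0185).

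In the citrate cycle list, 1 of 47 genes was lower with 9 libraries and 5 of 46 with 7, and 0 were higher. The NAD-dependent isocitrate dehydrogenase gene NewGene_451, for the step to 2-oxoglutarate, had 5.11, 3.82 and 5.39 CPM with NH4Cl and 12.2, 11.3 and 9.57 CPM with NaNO3 (log2 -1.2 ± 0.18, edgeR adjusted p = 0.0285). NewGene_450 and NewGene_452, with the same product name, were lower with 7 libraries (-1.24 ± 0.26 and -1.42 ± 0.3). Whether these 3 new gene models are parts of 1 gene was not tested. The other 2 called members are zinc-type alcohol dehydrogenase-like genes, which the pathway annotation places there and in oxidative phosphorylation.

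Of 113 oxidative phosphorylation genes, 0 were called with 9 libraries, and with 7 libraries 11 of 112 were lower and 0 higher. The median log2 fold change was -0.11 and -0.05. With 9 libraries 4 were higher and 20 lower at an unadjusted p below 0.05, and DESeq2, limma and voom called 9, 0 and 10 lower. None of the 11 codes for a subunit of the respiratory complexes I to IV or the mitochondrial ATP synthase. They are 6 subunits of the vacuolar proton ATPase, which acidifies the vacuole, 3 external NADH dehydrogenases, which pass electrons from cytosolic NADH to ubiquinone without pumping protons, and the 2 zinc-type alcohol dehydrogenase-like genes. The external NADH dehydrogenase gene NewGene_763 had 21.1, 24.1 and 63.1 CPM with NH4Cl and 120, 94.8 and 83.3 CPM with NaNO3. NH4Cl replicate 3 lay at the water level of 63.1 to 70.7 CPM, above the other NH4Cl libraries. The log2 fold change was -1.98 ± 0.15 with 7 libraries (edgeR adjusted p = 0.00423) and -1.46 ± 0.39 with 9 (adjusted p = 0.0921). V-ATPase subunit B (BC629DRAFT_1284538) had 195, 197 and 259 against 362, 363 and 334 CPM (7 libraries, -0.83 ± 0.14, adjusted p = 0.0211). Subunits C, D, E and H had 7-library values of -0.78 ± 0.13, -0.96 ± 0.13, -0.61 ± 0.12 and -0.91 ± 0.12.

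Pentose phosphate genes gave 0 called of 27 with 9 libraries and 1 lower with 7, a 6-phosphogluconolactonase gene (BC629DRAFT_1580965, log2 -1.21 ± 0.23, edgeR adjusted p = 0.032). Sugar transporters gave 0 of 45 and 1 lower, a glycerophosphocholine permease gene (BC629DRAFT_881385, -0.94 ± 0.21, adjusted p = 0.0471). Fatty acid degradation gave 0 of 65 and 3 lower, among them a long-chain fatty acid CoA ligase gene (BC629DRAFT_1581393) at 79.6, 68.7 and 129 against 199, 137 and 161 CPM (-1.01 ± 0.15, adjusted p = 0.0152). With 9 libraries the unadjusted p was below 0.05 for 6 pentose phosphate, 13 sugar transporter and 6 fatty acid degradation genes. DESeq2 called 3, 2 and 4 of them, limma 0 in each list, and voom 1, 0 and 4. A single one of 11 fatty acid desaturase genes was called, and it was higher with NH4Cl. The delta-12 desaturase gene BC629DRAFT_1275853, whose product makes linoleic acid, had 35.6, 64.8 and 69.6 CPM with NH4Cl and 7.06, 12.1 and 12.2 CPM with NaNO3. It was 5.43-fold higher (log2 2.44 ± 0.33, adjusted p = 0.0225; 7 libraries, adjusted p = 0.0191).

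**Figure D4:**
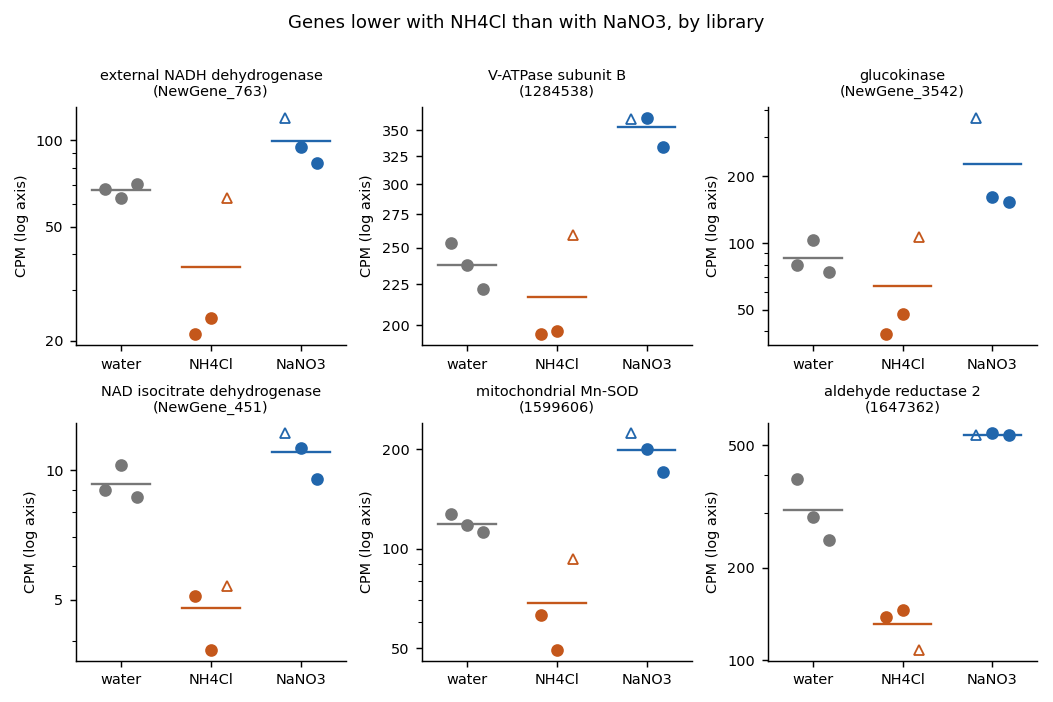
CPM on a log axis for 6 genes with lower levels with NH4Cl than with NaNO3, by library, with filled circles for libraries in both fits, open triangles for NH4Cl replicate 3 and NaNO3 replicate 1, and a line at each group's mean of 3. The external NADH dehydrogenase, V-ATPase and glucokinase genes were called with 7 libraries alone, and in their panels NH4Cl replicate 3 (63.1, 259 and 106 CPM) lies above the other NH4Cl libraries.

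Few genes of growth and protein synthesis were called. Of 162 ribosomal protein genes, 0 were called with 9 libraries and 1 was lower with 7, and the median log2 fold change was 0.2 and 0.01. In the 9-library fit 5 were higher and 6 lower at an unadjusted p below 0.05, and DESeq2, limma and voom called 3, 0 and 2 lower. The ribosomal share of counts was 3.69% to 4.59% with NH4Cl, and with NaNO3 it was 2.08% in replicate 1 and 4.35% and 3.65% in replicates 2 and 3. The called gene, for protein L35 (BC629DRAFT_1299863), had 14.2, 14.5 and 48.1 CPM with NH4Cl and 6.6, 75.6 and 56.2 CPM with NaNO3, and the libraries left out lay with the opposite group. Of 115 ribosome biogenesis genes 0 were called with 9 libraries and 2 were higher and 2 lower with 7, with medians of -0.14 and -0.2. Both higher ones are annotated to a sterigmatocystin monooxygenase (stcW) that the pathway annotation places in this list. Of 47 DNA replication genes 0 were called in either fit, with medians of -0.3 and -0.17 against 0.02 over all genes. The unadjusted p was below 0.05 for 20 ribosome biogenesis genes with 9 libraries, and for 12 DNA replication genes with 9 and 9 with 7. For ribosome biogenesis DESeq2, limma and voom called 6, 0 and 5 with 9 libraries. For DNA replication they called 4, 0 and 3 with 9 libraries and 0 each with 7.

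Proteasome genes, for the complex that degrades ubiquitin-tagged proteins, had negative fold changes throughout and few calls. With 9 libraries all 52 had log2 fold changes below 0, with a median of -0.63, and 0 were called. With 7 libraries 50 of 52 were below 0, with a median of -0.54, and 1 was called lower. At an unadjusted p below 0.05, 37 were lower with 9 libraries and 26 with 7, where 10.2% and 12.1% of all genes were. DESeq2 called 20 and 6 lower, limma 0 and 0, and voom 5 and 2. The list took 0.188%, 0.184% and 0.276% of counts in the NH4Cl libraries and 0.479%, 0.271% and 0.256% in the NaNO3 libraries. NaNO3 replicate 1 was the highest and NH4Cl replicate 3 lay between the NaNO3 libraries. The called gene codes for the pa28 proteasome activator (BC629DRAFT_110036), at 14.5, 13.2 and 17.3 against 30.8, 20.7 and 26.1 CPM (7 libraries, -0.75 ± 0.17, edgeR adjusted p = 0.0482).

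Of 137 genes of protein processing in the endoplasmic reticulum, 3 were lower with 9 libraries and 8 with 7, with 0 higher. Over all genes 1.09% were called with 9 libraries and 5.43% with 7, and the 7-library count of the list lies near that share. The 3 genes called with 9 libraries are annotated to NADH:flavin oxidoreductases, which the pathway annotation places in this list. The most abundant, BC629DRAFT_1438181, had 40.4, 63 and 79.7 CPM with NH4Cl and 209, 224 and 219 CPM with NaNO3 (log2 -1.83 ± 0.3, edgeR adjusted p = 0.0388). Of 27 superoxide dismutase, catalase, peroxiredoxin and thioredoxin genes, 1 was lower with 9 libraries and 4 with 7, with 0 higher. The mitochondrial manganese superoxide dismutase gene BC629DRAFT_1599606, which removes superoxide made by respiration, had 63, 49.4 and 92.8 CPM with NH4Cl and 223, 200 and 171 CPM with NaNO3. It was 2.89-fold lower with 9 libraries (-1.53 ± 0.24, adjusted p = 0.0329) and 3.3-fold lower with 7 (adjusted p = 0.00596). Glutaredoxin-1 (BC629DRAFT_1279888) had 41.8, 44.1 and 42.3 against 72, 94.2 and 76.9 CPM, and was called with 7 libraries (-1 ± 0.22, adjusted p = 0.0446).

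Genes of the cell wall moved in both directions. Of 26 chitin synthase, chitinase and chitin deacetylase genes, 1 was higher and 2 lower with 9 libraries, and 2 higher and 3 lower with 7. All 3 called with 9 libraries are chitin deacetylases, which turn chitin into chitosan. BC629DRAFT_1716602 had 292, 291 and 1119 CPM with NH4Cl and 25.4, 18.3 and 22.2 CPM with NaNO3, and was 25.8-fold higher with NH4Cl (log2 4.69 ± 0.8, edgeR adjusted p = 0.0416). Without NH4Cl replicate 3, its highest library, and NaNO3 replicate 1 it was 14.4-fold higher (3.85 ± 0.73, adjusted p = 0.0308). NewGene_2243 went the other way, at 28.6, 31.7 and 21.1 against 79.4, 74.6 and 74.9 CPM (-1.49 ± 0.17, adjusted p = 0.0133). BC629DRAFT_1442315 was lower as well, at 107, 147 and 103 against 343, 276 and 282 CPM (-1.34 ± 0.19, adjusted p = 0.0242). Of 13 hydrophobin genes, for secreted proteins that coat hyphae, 0 were called with 9 libraries and 1 was lower with 7, the SC4-like gene BC629DRAFT_1488659 at 997, 651 and 627 against 707, 2617 and 2683 CPM (-1.69 ± 0.37, adjusted p = 0.0449). In the 9-library fit 2 hydrophobin genes were higher and 1 lower at an unadjusted p below 0.05. DESeq2 called 1 in each direction, limma 0, and voom 1 lower.

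**Figure D5:**
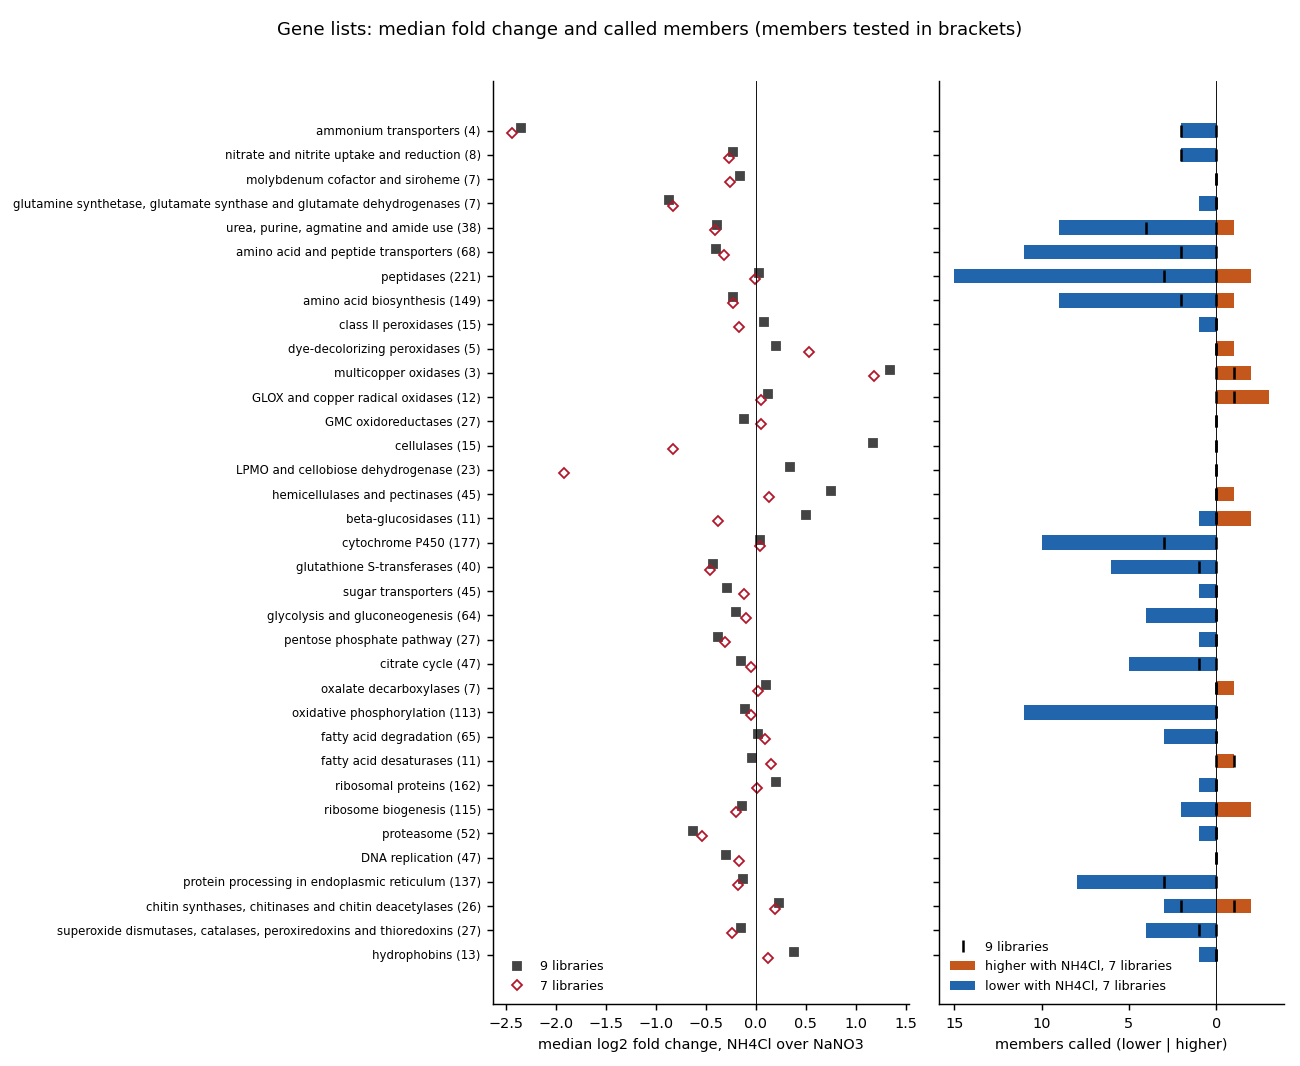
Left, the median log2 fold change of NH4Cl over NaNO3 over the tested members of each gene list, as squares for 9 libraries and diamonds for 7. Right, the number of members called lower (to the left) and higher (to the right), as bars for 7 libraries and ticks for 9; the medians of cellulases and of LPMO and cellobiose dehydrogenase lie on opposite sides of 0 in the 2 fits.

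Most called genes fell outside the lists, and many have no assigned function. Of the 162 genes called with 9 libraries, 54 carried a named product, and 78 had neither a product nor a protein domain. Among named genes outside the lists, the aldehyde reductase 2 gene BC629DRAFT_1647362 had 138, 146 and 108 CPM with NH4Cl and 539, 546 and 538 CPM with NaNO3. It was 4.15-fold lower (log2 -2.05 ± 0.22, edgeR adjusted p = 0.0133) and was called under 15 of 17 alternatives. A zinc-type alcohol dehydrogenase-like gene (BC629DRAFT_1438057) was lower in both fits (-2.28 ± 0.4, adjusted p = 0.0416), as was plasma membrane proteolipid 3 (BC629DRAFT_1278424), at 80.6, 54.8 and 105 against 431, 189 and 252 CPM (-1.86 ± 0.34, adjusted p = 0.0476). The sporulation-specific protein 75 gene BC629DRAFT_1547602 was lower with 7 libraries (-3.1 ± 0.35, adjusted p = 0.00668).

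The annotated class of secondary metabolite genes held 1 higher and 5 lower of 450 with 9 libraries and 4 higher and 23 lower of 453 with 7. These are 1.33% and 5.96% of its genes, near the 1.09% and 5.43% called over all genes. Some named genes with annotations of this kind were higher. The dehydrogenase orsE gene BC629DRAFT_1517966 had 54.4, 68.6 and 65.1 CPM with NH4Cl and 14, 21.3 and 16.7 CPM with NaNO3, with water between at 22, 33.8 and 27.6 CPM. Its log2 fold change was 1.85 ± 0.22 (edgeR adjusted p = 0.0175), and it was called under 14 of 17 alternatives. The Diels-Alderase ucsH gene BC629DRAFT_676559 had 28.7, 28.1 and 30.4 against 5.83, 5.24 and 8.42 CPM (2.16 ± 0.28, adjusted p = 0.0191). The efflux pump FUS6 gene BC629DRAFT_1286777 was called with 7 libraries alone, at 339, 398 and 34.8 against 6.51, 13 and 23.8 CPM (4.32 ± 0.92, adjusted p = 0.0419). With NH4Cl replicate 3 in the fit its adjusted p was 0.0902.

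Transcription regulators named CRZ1 and RGT1 stood among the largest 7-library rises, and NH4Cl replicate 1 was the highest NH4Cl library for both. The gene named CRZ1 (BC629DRAFT_1715047), a calcineurin-responsive factor in yeast, had 543, 99.6 and 168 CPM with NH4Cl and 86, 40.4 and 37 CPM with NaNO3 (log2 3.05 ± 0.67, edgeR adjusted p = 0.0466). The gene named for the yeast glucose transport regulator RGT1 (BC629DRAFT_1515137) had 470, 87.2 and 142 against 119, 30.1 and 29.5 CPM (3.22 ± 0.7, adjusted p = 0.0446). Water libraries were at or above the level of NH4Cl replicate 1 for RGT1, at 772, 1225 and 969 CPM. The FDD123 gene BC629DRAFT_1436974 followed the same pattern, at 1156, 340 and 226 against 149, 116 and 35.7 CPM, with 2010 to 3166 CPM in water (3.3 ± 0.73, adjusted p = 0.0464). With 9 libraries none of these 3 genes was called, at log2 2.31 ± 0.61, 1.97 ± 0.74 and 2.52 ± 0.71 for CRZ1, RGT1 and FDD123 (edgeR adjusted p = 0.0921, 0.173 and 0.104). Without NH4Cl replicate 1, which leaves a single NH4Cl library, their 7-library log2 fold changes were 1.37, 1.55 and 2.17.

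The authors' deposited table, with its sign turned to NH4Cl over NaNO3, calls 172 genes higher and 122 lower at their FDR of 0.01 and a fold of 2. Of these, 73 and 61 are among the 9-library calls, and 99 and 91 among the 7-library calls.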

How the data were processed

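Per the file headers, the deposited table holds raw counts and FPKM values of 19212 genes in 9 libraries, made by the authors, with annotation columns. Columns in other units hold fold changes (log2) and adjusted p-values that the authors deposited from DESeq2. The deposited fold for this pair is NaNO3 over NH4Cl (986 of 986 genes past 2-fold in the counts had the opposite sign), so it was turned. HISAT2 and StringTie were used per the submitters' processing notes, with no version. The genome build, annotation and strand setting are not given in the sources used here. *Irpex lacteus* is taken from the title and organism field, although the design text has *Tricholoma album*.

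Counts were tested with edgeR 4.0.16 in R 4.3.3 (filterByExpr, TMM, quasi-likelihood test, no block), once with 9 libraries and once without NH4Cl replicate 3 and NaNO3 replicate 1, with Benjamini-Hochberg adjustment over all tested genes at 0.05. The scripts were tested on simulated data. CPM values are TMM-scaled. FPKM, a level per length, served to choose named genes and for limma 3.58.1 on log2(FPKM + 1), where fold changes of low genes are understated. Alternatives were DESeq2 1.42.0, voom with library weights, RLE scaling, no filter, a replicate block, the salts alone and leaving out each library.

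The comparison, the 36 lists and the naming rule were chosen with earlier results of these data known. Lists are word patterns over Swiss-Prot and Pfam names or KEGG pathways, narrowed after earlier matches had caught unrelated genes, with values in view. Named were, per fit, the 10 largest rises and falls among called genes without group overlap, with a named product and at least 10 FPKM in the higher group, the 2 most abundant called members of each list, and the 6 most abundant members of the ammonium, nitrate and glutamine lists. Part of these is printed. Other called list members in the text were chosen after their values were seen.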

Additional observations from a re-analysis of the deposited data

How the results depend on the processing

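With 9 libraries, 162 genes were called. Scaling by the DESeq2 size factors, no filter and limma on FPKM gave 152, 136 and 120 calls. DESeq2 called 1397 and voom with library weights 1064, and with these the share of calls that were higher was 50.2% and 45% against 54.3%. The 6 NH4Cl and NaNO3 libraries alone gave 12 calls, and the 7-library fit gave 810. Leaving out each library gave 0 to 535 calls. With 7 libraries, 810 genes were called, DESeq2 called 1499, and scaling, filter, limma, voom and the 4 salt libraries alone gave 744 to 835. Leaving out each of the 7 libraries gave 15 to 1017 calls, and where this left a salt with 1 library, that library was assumed to vary like the other groups. The causes of these differences were not tested.

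With the replicate number as a replicate block, 3 genes were called with 9 libraries and 0 with 7, where 2643 and 2880 had an unadjusted p under 0.05. Deviations of same-numbered libraries from their group means correlated between -0.28 and 0.286, and those of NH4Cl replicate 3 and NaNO3 replicate 1 at 0.46. Deviations within a group of 3 sum to 0 and the libraries that stood apart weigh on them. These values therefore cannot decide whether same-numbered libraries were paired, and the labels do not say.

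Of the 81 genes chosen by the naming rule, those called in a fit kept their direction under every alternative to that fit. Other genes in the text were not followed through the alternatives. Limits are 3 libraries per group, or 2 in the 7-library fit, where the spread comes in part from the water libraries, and the depth, which leaves genes with few counts untested. Adjusted p-values of the 9-library calls lay near the threshold. Floors cover counting error only.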

Other observations

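By functional class in the deposited eggNOG annotation, most classes held more lower than higher 7-library calls. All genes together did so too, at 285 higher (1.91%) and 525 lower (3.52%). Energy production and conversion held 3 genes higher and 36 lower of 399, amino acid transport and metabolism 1 and 22 of 314, lipid transport and metabolism 2 and 20 of 249, and signal transduction 3 and 37 of 590. Carbohydrate transport and metabolism held 15 higher and 31 lower of 470, a split near that of all calls, of which 35.2% were higher. Translation, with 0 higher and 8 lower of 387, had 2.07% of its genes called, and replication and repair, with 0 and 4 of 230, had 1.74%, against 5.43% of all genes. Genes with no class went the other way, at 180 higher and 126 lower of 6682. With 9 libraries energy production held 2 higher and 7 lower of 398, and genes with no class 60 higher and 21 lower of 6590. RNA processing and modification held 6 higher and 0 lower of 359 with 9 libraries, and 4 higher and 5 lower with 7.

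Among the 7-library calls, 13 genes had 0 counts in both remaining NH4Cl libraries and 10 had 0 counts in both remaining NaNO3 libraries. The gene for the G subunit of the vacuolar proton ATPase (BC629DRAFT_1624846) had 0 counts in NH4Cl replicates 1 and 2, 13 CPM in NH4Cl replicate 3, 16.7, 18.8 and 13.7 CPM with NaNO3 and 11 to 12.4 CPM with water. Against a floor of 3 counts per library (0.171 CPM), it was at least 95.2-fold lower in those NH4Cl libraries than in NaNO3 replicates 2 and 3. The gene for the replication protein PSF3 (BC629DRAFT_1714841) had 0 counts in the same libraries, 3.05 CPM in NH4Cl replicate 3 and 3.89 and 4.34 CPM in NaNO3 replicates 2 and 3. BC629DRAFT_1488958, with no product name, had 0 counts there, 49.8 CPM in NH4Cl replicate 3 and 85 to 100 CPM with water. With 9 libraries, nucleolar protein 13 (BC629DRAFT_1528422) had 0 counts in all 3 NaNO3 libraries and 0.762 to 1.08 CPM with NH4Cl. These genes were chosen after their values were seen.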
